A study of Mus musculus with 7 samples.

Results

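The 10 genes described here are Kdm6a, Kdm5c, Ddx3x, Eif2s3x, Utp14a, Pbdc1, Syap1, 5530601H04Rik, Shroom4 and Mid1, which are known or proposed to escape X chromosome inactivation in mouse. They were chosen by name, with earlier results of these data known, out of 22556 genes in the count files, 908 of them X-linked. They were read in all 7 libraries. The assay was ChrRNA-seq, sequencing of RNA that stays with chromatin and is rich in nascent transcripts, on undifferentiated female mouse embryonic stem cells (mESCs). Each cell carries a domesticus genome from 129/Sv (Dom) beside a castaneus genome from CAST/EiJ (Cast). All of them had Xist induced for 10 days with 1 µg/mL doxycycline through a TetOn promoter in place of the Xist promoter of 1 X chromosome. That X is the Dom one in the line iXist-ChrX-Dom (4 libraries) and the Cast one in the line iXist-ChrX-Cast (3 libraries). The induced chromosome is called Xi and the other Xa, so that the Cast allele is Xa in the first line and Xi in the second. Each line goes back to a single clone by the study's methods, and nothing in the labels says that the libraries of a line are separate cultures, so p-values measure the spread between these libraries. No uninduced sample was analysed here, and none of the values is a change over time.

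Xist RNA coats the chromosome it is transcribed from and recruits factors that silence most of its genes. A minority of X-linked genes keep being transcribed from Xi and are called escape genes. Several of the best known escape genes, Kdm6a, Kdm5c, Ddx3x and Eif2s3x among them, have a partner gene on the Y chromosome, so that males as well as females carry a pair of related copies. Escape is commonly stated as an allelic ratio, Xi/(Xi + Xa), but the ratio moves with Xa as much as with Xi. The levels from Xi and Xa were therefore read apart. The study reports that silencing by Xist is less complete in undifferentiated cells than in cells differentiated to neuronal precursors. Whether RNA of a member from Xi stands for escape or for incomplete silencing in these undifferentiated cells was not tested.

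Which members can be read on both alleles depended on position. Shroom4, Ddx3x, Kdm6a, Utp14a and Eif2s3x lie centromeric of Xist, and these 5 were resolved in both lines. Pbdc1, 5530601H04Rik, Kdm5c, Syap1 and Mid1 lie telomeric of Xist, where iXist-ChrX-Dom carries Cast sequence on both X chromosomes, and these 5 were resolved in iXist-ChrX-Cast alone. The authors' table of ratios holds 5 of the 10 genes for iXist-ChrX-Dom, that of the other line holds 9, and Mid1 is in neither. Libraries held 14877384 to 24309806 counted fragments, of which 44.2% to 46.4% were allelic. Xist fragments came from Xi by 99.9% in every iXist-ChrX-Dom library and by 94.0% to 94.7% in iXist-ChrX-Cast. Replicates 3 and 4 of iXist-ChrX-Dom are described as d1 in 1 label and as 10 days in the others. Feeder fibroblasts had been depleted by pre-plating, by the study's methods. The files of iXist-ChrX-Cast replicates 1 and 2 are named with another clone than their labels. Values without iXist-ChrX-Dom replicates 3 and 4, called doubted below for that 1 label, are given where they change a call.

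The cells had the RNA of stem cells, with Pou5f1, Nanog, Esrrb, Zfp42 and Klf4 all present and a summed level of 1009 to 1324 CPM (counted fragments per 1000000). Sox2 was listed at 0 in every library. The 7 fibroblast markers, which would mark feeder cells, summed to 21.6 to 35.7 CPM in iXist-ChrX-Dom compared with 25.6 to 31.7 CPM in iXist-ChrX-Cast, with Lum at 0 to 4 fragments and the others led by Col1a2. Their allelic fragments were mostly Dom, by 73.2% to 84.8% in the first line and 84.9% to 88.1% in the second, and the share of such cells in the Dom levels of each member was not tested. The 5 neural markers summed to 21.2 to 45.6 CPM and 15.6 to 21.8 CPM in the same order, with Sox1 listed at 0. In iXist-ChrX-Dom the homozygous Cast region bears on the Dom levels directly, because every Dom-assigned fragment there is misassigned or comes from other cells. Pooled over the 5 telomeric members, Dom-assigned fragments were 1.22%, 1.50%, 1.55% and 2.04% of allelic fragments in replicates 1 to 4, Mid1 having most of the allelic fragments. Over all 159 genes of the iXist-ChrX-Cast table in that region the pooled shares were higher, at 3.20%, 3.48%, 3.30% and 4.19%. The highest value of a single member was 6.67% for Syap1 in replicate 4 (13 of 195 fragments, 95% Wilson interval 3.94% to 11.1%, which covers counting error only). The Xi shares reported for iXist-ChrX-Dom below, 0.176 or more, lie above all of these.

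The promoter sequences of 3 members are shown, those of Kdm6a, for which the mean of both lines put Xi closest to Xa among the 5 genes resolved in both, and of Utp14a and Eif2s3x, whose ratios differed between the lines in opposite directions. They are the 250 bases before the RefSeq start site, 5′ to 3′ on the strand of the gene (GRCm38.p6, the assembly of mm10), at chrX:18162325-18162574 on the plus strand, chrX:48256684-48256933 on the plus strand and chrX:94212652-94212901 on the minus strand. Capitals mark a match to ATGGCG, the core of the motif of the transcription factor YY1, here on the opposite strand as CGCCAT.
Kdm6a: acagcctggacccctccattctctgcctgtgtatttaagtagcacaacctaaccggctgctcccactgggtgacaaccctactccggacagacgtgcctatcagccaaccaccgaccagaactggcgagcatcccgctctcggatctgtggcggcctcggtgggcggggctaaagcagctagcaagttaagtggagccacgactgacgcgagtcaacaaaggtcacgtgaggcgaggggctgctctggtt
Utp14a: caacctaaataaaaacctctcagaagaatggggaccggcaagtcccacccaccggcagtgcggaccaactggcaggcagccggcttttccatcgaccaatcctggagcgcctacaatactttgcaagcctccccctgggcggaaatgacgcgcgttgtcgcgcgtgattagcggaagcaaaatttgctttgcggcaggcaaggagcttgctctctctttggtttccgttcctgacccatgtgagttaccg
Eif2s3x: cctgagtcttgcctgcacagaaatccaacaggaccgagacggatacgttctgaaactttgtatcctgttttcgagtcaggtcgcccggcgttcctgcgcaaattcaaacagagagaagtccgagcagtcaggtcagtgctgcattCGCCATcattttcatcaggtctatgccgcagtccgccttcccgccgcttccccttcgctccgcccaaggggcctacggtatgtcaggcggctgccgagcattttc

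Over windows that run from 250 bases before to 50 after the start site, ATGGCG on either strand was held by 8.93% of 32851 RefSeq promoters and by 2 of the 9 members with an entry, Eif2s3x and Kdm5c. AGGGGGC, a part of the CTCF motif, was held by 10.6% of promoters and by 0 of the 9. Syap1 had no entry. Kdm6a, Utp14a and Eif2s3x each had 21 CG dinucleotides in that window, Ddx3x had 25, Pbdc1 20, Kdm5c 13 and 5530601H04Rik 11, against a median of 7 over all promoters. Shroom4 and Mid1 have 3 entries each, with 18 and 2 at the first start site. The matches are descriptions of these windows and were not tied to the levels that follow.

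Allelic levels are given as allelic CPM, fragments assigned to 1 genome per 1000000 such fragments of autosomes with even allelic counts. The denominators, which leave out all other chromosomes and weakly counted genes, were scaled across all 14 allelic libraries. Cast and Dom levels are thereby on a common scale, and the lower share of Cast-assigned fragments (46.5% to 47.1% for the median autosomal gene) is removed. An allelic level also depends on how many strain polymorphisms a gene holds, so levels of this kind are compared within a gene only.

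Kdm6a (chrX:18162666-18279358), a histone demethylase, had RNA from both X chromosomes in both lines. In iXist-ChrX-Dom its Xa level was 1657, 1757, 1568 and 1498 and its Xi level 1144, 1199, 1097 and 991 allelic CPM in replicates 1 to 4. In iXist-ChrX-Cast its Xa level was 1938, 1832 and 1371 and its Xi level 1465, 1300.1 and 974 in replicates 1 to 3. Xi was below Xa in each of the 7 libraries, although replicate 3 of iXist-ChrX-Cast had less from Xa than replicate 1 had from Xi. In bulk libraries, fewer cells that transcribe a gene from Xi and less RNA per cell cannot be told apart. As a share of the Xa level, Xi stood at 68.4 ± 1.63% (SD, n = 4) in iXist-ChrX-Dom compared with 72.6 ± 2.65% (SD, n = 3) in iXist-ChrX-Cast.

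Ddx3x (chrX:13281021-13293983) encodes a DEAD-box RNA helicase. In iXist-ChrX-Dom its Xa level was 582, 556, 527 and 449 and its Xi level 230.3, 203, 219 and 170.4. In iXist-ChrX-Cast the Xa level was 622, 681 and 517 and the Xi level 324, 399 and 214. The Xa and Xi levels did not overlap in either line. Xi stood at 39.0 ± 2.19% of Xa (SD, n = 4) in the first line and 50.7 ± 8.74% (SD, n = 3) in the second, where replicate 3 was lowest with 41.4%.

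Eif2s3x (chrX:94188708-94212651) encodes the subunit of a translation initiation factor that binds GTP and initiator tRNA. In iXist-ChrX-Dom its Xa level was 232, 229, 218 and 191 and its Xi level 71.9, 70.4, 87.6 and 82.2. In iXist-ChrX-Cast the Xa level was 161, 153 and 154 and the Xi level 172, 160.0 and 130.1. Xi exceeded Xa in replicates 1 and 2 of this line and was below it in replicate 3. Both chromosomes thus differed between the lines. The Xi level was higher in all iXist-ChrX-Cast libraries than in any of iXist-ChrX-Dom, and the Xa level was lower. Xi stood at 36.3 ± 6.32% of Xa (SD, n = 4) and 98.6 ± 12.2% (SD, n = 3).

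Utp14a (chrX:48256933-48282449) encodes a nucleolar protein of ribosomal RNA processing. In iXist-ChrX-Dom its Xa level was 285, 262, 344 and 373 and its Xi level 218, 199.9, 236 and 237. In iXist-ChrX-Cast the Xa level was 572, 581 and 570.3 and the Xi level 141, 139 and 124. The difference between the lines was the reverse of that of Eif2s3x, with the Xi level higher in iXist-ChrX-Dom while the Xa level was higher in iXist-ChrX-Cast, in all libraries of each. Xi stood at 71.4 ± 6.32% of Xa (SD, n = 4) and 23.5 ± 1.46% (SD, n = 3).

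Shroom4 (chrX:6400144-6633717) belongs to a family of actin-binding proteins. In iXist-ChrX-Dom its Xa level was 238, 259, 261 and 263 and its Xi level 52.2, 48.8, 56.2 and 82.6. In iXist-ChrX-Cast the Xa level was 357, 260.2 and 283 and the Xi level 48.0, 31.7 and 26.4, from 94, 85 and 75 fragments. Shroom4 had the lowest share from Xi of the 5 genes in both lines, 23.4 ± 5.48% of Xa (SD, n = 4) and 11.7 ± 2.10% (SD, n = 3). Without iXist-ChrX-Dom replicate 4, the other 3 libraries of that line stood at 18.8% to 22.0%.

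**Figure D1:**
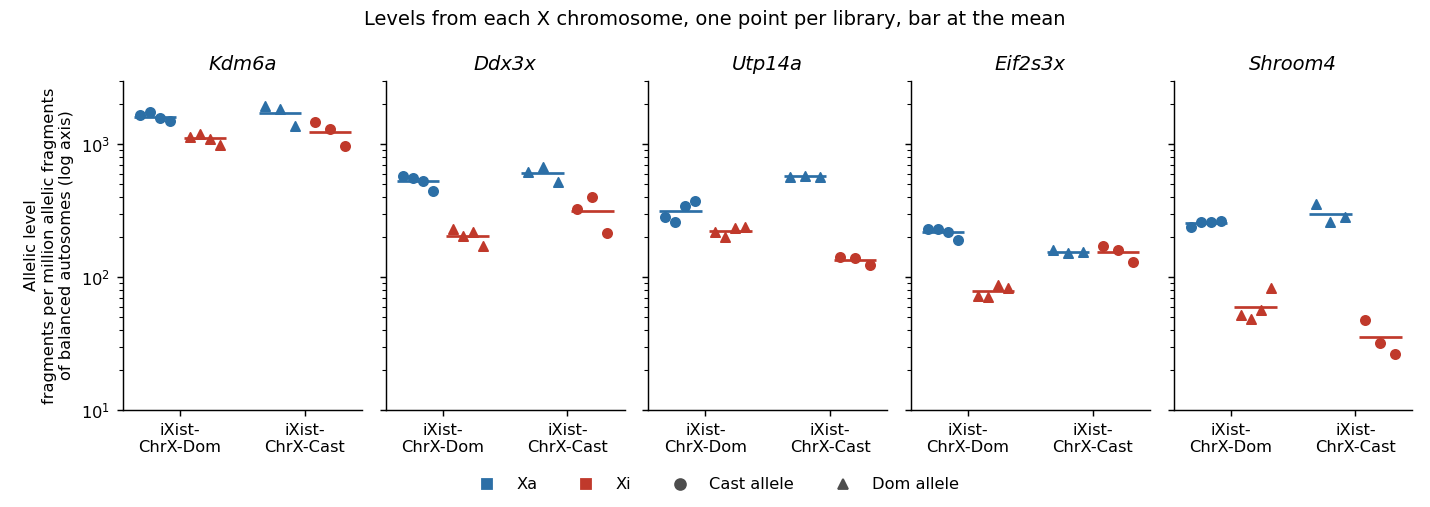
Allelic levels (log axis, allelic CPM) of the 5 genes resolved in both lines, with 1 point per library, Xa in blue, Xi in red, circles for the Cast allele and triangles for the Dom allele, and a bar at the mean. For Eif2s3x the Xi level was 70.4 to 87.6 in iXist-ChrX-Dom compared with 130.1 to 172 in iXist-ChrX-Cast, and for Utp14a the order was reversed, with 199.9 to 237 against 124 to 141.

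Xi was then compared with Xa within each line across all genes (edgeR quasi-likelihood test with the library as a block and Benjamini-Hochberg adjustment over all genes). In iXist-ChrX-Dom all 5 genes were lower on Xi. The log2 change was -0.55 (SE 0.03, adjusted p = 3.61e-13) for Kdm6a, -1.36 (SE 0.043) for Ddx3x, -1.49 (SE 0.074) for Eif2s3x, -0.49 (SE 0.05, adjusted p = 1.53e-08) for Utp14a and -2.11 (SE 0.083) for Shroom4. This count says little by itself, because 33.1% of all genes tested and 96.4% of the X-linked genes centromeric of Xist passed as lower on Xi in this line. The size of the change set the members apart in number: their median was -1.36, against -2.73 for all 249 X-linked genes centromeric of Xist that were tested, members included. These genes had been listed as escape genes beforehand, with earlier results of these data known, and the medians were not tested against each other.

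In iXist-ChrX-Cast, 9 of the 10 members passed, 8 of them lower on Xi, where 51.9% of all genes tested passed, 24.4% as lower, and 96.4% of X-linked genes passed as lower. Utp14a changed by -2.10 (SE 0.06) and Shroom4 by -3.11 (SE 0.096), both further from 0 than in the other line, and Kdm6a changed by -0.46 (SE 0.043) and Ddx3x by -0.98 (SE 0.076). Eif2s3x did not pass, with a log2 change of -0.03 (SE 0.079, adjusted p = 0.769, edgeR). Its sign rested on replicate 3, without which it was 0.08 (adjusted p = 0.427). The members' median was -1.07, against -2.66 for all 414 X-linked genes tested. Shroom4, at -3.11, lay beyond the X-linked median. Mid1, the member higher on Xi, is among these 10, and the middle value of the other 9 was that of Kdm5c, -1.16.

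A comparison within a line sets the Dom allele against the Cast allele and so includes any strain difference in expression. The same allele was therefore compared between the lines, where its polymorphisms are the same and its role changes from Xa to Xi. On the Cast allele, 4 of the 5 genes were lower as Xi than as Xa (7.96% of all genes and 94.9% of the X-linked genes centromeric of Xist passed in this direction). The log2 difference, iXist-ChrX-Dom minus iXist-ChrX-Cast, was 2.87 (SE 0.18, adjusted p = 3.84e-07) for Shroom4, 1.23 (SE 0.15, adjusted p = 7.97e-05) for Utp14a, 0.76 (SE 0.18, adjusted p = 0.0126) for Ddx3x and 0.50 (SE 0.13, adjusted p = 0.0208) for Eif2s3x. Kdm6a did not pass, with 0.38 (SE 0.14, adjusted p = 0.113), but did with the replicate number as a block (0.43, adjusted p = 0.0133). In that model iXist-ChrX-Dom replicate 4 has no partner and adds nothing to the difference between lines. The call for Eif2s3x was lost when any 1 of 5 libraries was left out, iXist-ChrX-Dom replicate 1, 2 or 3 or iXist-ChrX-Cast replicate 2 or 3 (adjusted p = 0.0528 to 0.0632).

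On the Dom allele, all 5 genes were lower as Xi than as Xa, where 4.19% of all genes and 94.5% of the X-linked genes centromeric of Xist passed in this direction. The log2 difference was -2.32 (SE 0.18, adjusted p = 9.81e-07) for Shroom4, -1.56 (SE 0.14) for Ddx3x, -1.37 (SE 0.11, adjusted p = 1.06e-06) for Utp14a, -1.0 (SE 0.12) for Eif2s3x and -0.63 (SE 0.14, adjusted p = 0.0143) for Kdm6a. Kdm6a no longer passed without the doubted iXist-ChrX-Dom replicates 3 and 4 (-0.55, adjusted p = 0.139), and leaving out 1 library also ended its call, for iXist-ChrX-Dom replicate 3 or 4 or iXist-ChrX-Cast replicate 1 or 2 (adjusted p = 0.0524 to 0.0921). With the replicate number as a block, where iXist-ChrX-Dom replicate 4 has no partner, the call stayed, and genes called in all rose from 617 to 1122. Taken apart by set, replicates 1 and 2 of both lines and the remaining libraries gave the same direction for all 5 genes on both alleles, from 0.31 to 2.67 and 0.65 to 3.31 on the Cast allele. The members' median differences were 0.76 on the Cast allele and -1.37 on the Dom allele, against 2.50 and -2.72 for the 253 X-linked genes centromeric of Xist. Shroom4 lay beyond the X-linked median on the Cast allele (2.87) and short of it on the Dom allele (-2.32).

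Seen on a single allele, Utp14a was lower as Xi by 2.34-fold on the Cast allele and 2.58-fold on the Dom allele, while its deposited ratio was 0.447 ± 0.0226 in one line and 0.170 ± 0.00653 in the other. For Ddx3x the deposited ratio, which is not corrected for the lower share of Cast fragments, was 0.307 ± 0.0110 in iXist-ChrX-Dom (SD, n = 4) against 0.306 ± 0.0340 in iXist-ChrX-Cast (SD, n = 3), while on the corrected scale Xi stood at 39.0% and 50.7% of Xa. Its fold was 1.69 on the Cast allele and 2.95 on the Dom allele. For Eif2s3x the folds were 1.42 and 2.00, for Kdm6a 1.30 and 1.55, and for Shroom4 7.31 and 5.01. Whether the folds of the 2 alleles differed was not tested, and the same-allele comparison includes any difference between the clones.

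**Figure D2:**
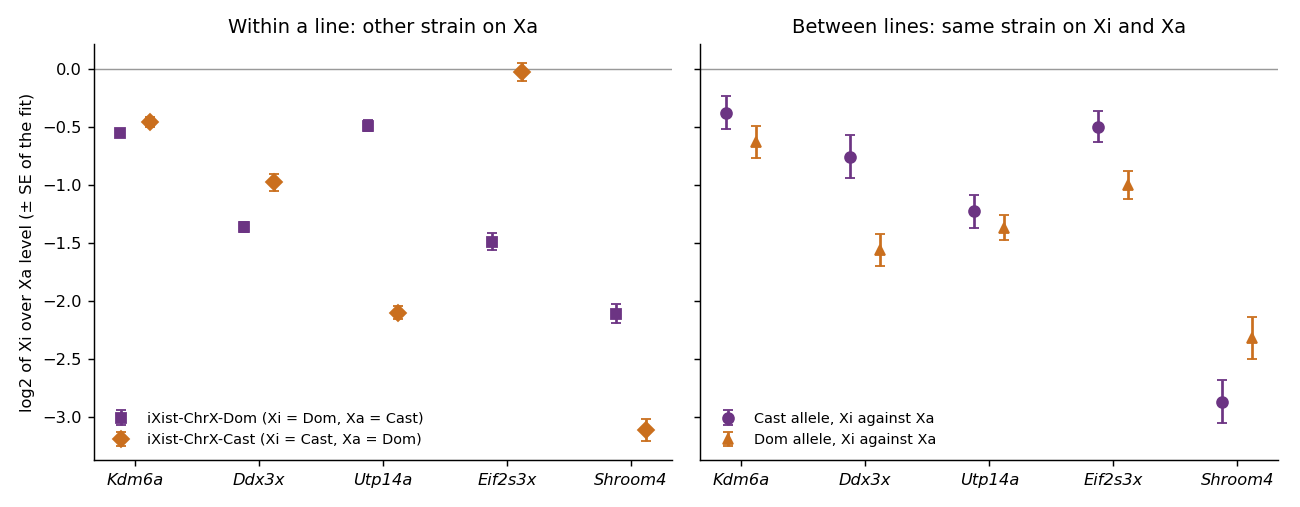
Log2 of the Xi over the Xa level (± SE of the edgeR fit) for the 5 genes, within each line on the left and for the same allele between the lines on the right. Eif2s3x and Utp14a stand furthest apart on the left (-1.49 against -0.03 and -0.49 against -2.10), and Utp14a lies at about the same height for both alleles on the right (2.34-fold and 2.58-fold lower as Xi).

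The mean of both lines' log2 ratios cancels a strain difference that is the same in both. On this measure Xi stood at 70.4% of Xa for Kdm6a (log2 -0.51, SE 0.017), 59.3% for Eif2s3x (-0.75, SE 0.083), 44.2% for Ddx3x (-1.18, SE 0.077), 40.8% for Utp14a (-1.29, SE 0.042) and 16.3% for Shroom4 (-2.62, SE 0.11). The SEs are from the spread between libraries (n = 4 and 3). Ddx3x and Utp14a lay closer together than the sum of their SEs, the other neighbours in this order did not, and no test was made. Read the other way, the difference of both lines put the Dom allele of Utp14a at 1.74 times the Cast allele and that of Shroom4 at 1.41 times, whereas Eif2s3x had 0.605 times, Ddx3x 0.880 times and Kdm6a 0.971 times. These are strain differences only if the Xi share is otherwise the same in both lines. With 1 line per arrangement, strain and line cannot be told apart.

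The allelic ratio itself was compared between the lines on its log-odds over the 235 genes of both tables (limma, adjusted over these genes, of which 33.2% passed). Utp14a was higher in iXist-ChrX-Dom by 1.92 (SE 0.15, adjusted p = 1.28e-04) and Shroom4 by 1.29 (SE 0.22, adjusted p = 0.00483), and Eif2s3x was lower by a log2 odds difference of -1.05 (SE 0.19, adjusted p = 0.00586). Kdm6a (0.28, SE 0.13, adjusted p = 0.136) and Ddx3x (0.01, SE 0.17, adjusted p = 0.972) did not pass. The 2 sets of libraries, replicates 1 and 2 against replicates 3 and 4, gave the same sign for the 3 called genes, with 1.99 and 1.88 for Utp14a, 1.00 and 1.70 for Shroom4 and -1.35 and -0.67 for Eif2s3x. Ddx3x had -0.14 and 0.28. Corrected for the lower share of Cast-assigned fragments, Kdm6a stood at -0.09 and Ddx3x at -0.37, neither called, and the 3 called genes kept their calls and signs.

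Telomeric members were read in iXist-ChrX-Cast, where Xi is Cast. Kdm5c (chrX:152233226-152279099), a histone demethylase, had an Xi level of 109, 104 and 92.4 and an Xa level of 225, 229 and 224 allelic CPM in replicates 1 to 3. Xi was below Xa in each library, at 45.1 ± 3.70% (SD, n = 3), with a log2 change of -1.16 (SE 0.073, adjusted p = 8.16e-09, edgeR). In iXist-ChrX-Dom, where both copies are Cast, the Cast-assigned level was 298, 301, 343 and 338, and the Dom-assigned level was 1.97 to 6.80.

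5530601H04Rik (chrX:105040853-105070124) and Pbdc1 (chrX:105079755-105117090) are neighbours transcribed away from each other, the former annotated as a long noncoding RNA. 5530601H04Rik had an Xi level of 104, 84.3 and 85.0 and an Xa level of 125, 117 and 120.1. Its Xi stood at 75.1 ± 6.79% of Xa (SD, n = 3), log2 -0.42 (SE 0.083, adjusted p = 6.27e-04, edgeR). Pbdc1 had an Xi level of 219, 194 and 144 and an Xa level of 639, 588 and 486, so that Xi stood at 32.3 ± 2.36% (log2 -1.63, SE 0.059). With both copies Cast, iXist-ChrX-Dom had a Cast-assigned Pbdc1 level of 459, 442, 503 and 447, below the sum of both alleles in 3 of 3 iXist-ChrX-Cast libraries. The allelic ratio of 5530601H04Rik was higher than that of its neighbour in 3 of 3 libraries (0.397 ± 0.0191 against 0.220 ± 0.00985).

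Syap1 (chrX:162856842-162888462) had the fewest fragments, with an Xi level of 17.4, 21.3 and 14.1 from 34, 57 and 40 fragments and an Xa level of 47.0, 51.8 and 55.8. Xi stood at 34.4 ± 8.19% of Xa (SD, n = 3), log2 -1.56 (SE 0.16, adjusted p = 1.05e-06, edgeR). The Wilson intervals of its ratio in single libraries ran from 0.138 to 0.325, and all 3 overlapped.

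Mid1 (chrX:169685198-169990797), a microtubule-associated ubiquitin ligase, lies near the pseudoautosomal region, and in laboratory mice of domesticus origin the gene spans that boundary. It stood apart from all other members. In iXist-ChrX-Cast its Cast (Xi) level was 2036, 1981.5 and 1356 and its Dom (Xa) level 132, 112 and 58.6. Xi was thus above Xa in all 3 libraries, by 4.19 on the log2 scale (SE 0.082, adjusted p = 1.10e-13, edgeR), where 1.69% of X-linked genes passed as higher on Xi. Xi made up 0.930, 0.939 and 0.954 of 4285, 5659 and 4032 allelic fragments. In iXist-ChrX-Dom, with Cast on both copies, the Cast-assigned level was 2305, 2079, 2228 and 2098, against a Dom-assigned level of 20.2 to 31.8. As for the other telomeric members, Xi and strain cannot be told apart for Mid1, since the alleles were read in 1 arrangement. The authors' ratios leave out genes with few allelic fragments. They also leave out genes strongly monoallelic before induction, which the study regards as likely artifacts of polymorphism annotation. Mid1 is not among the genes kept, and its ratio before induction was not read here.

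**Figure D3:**
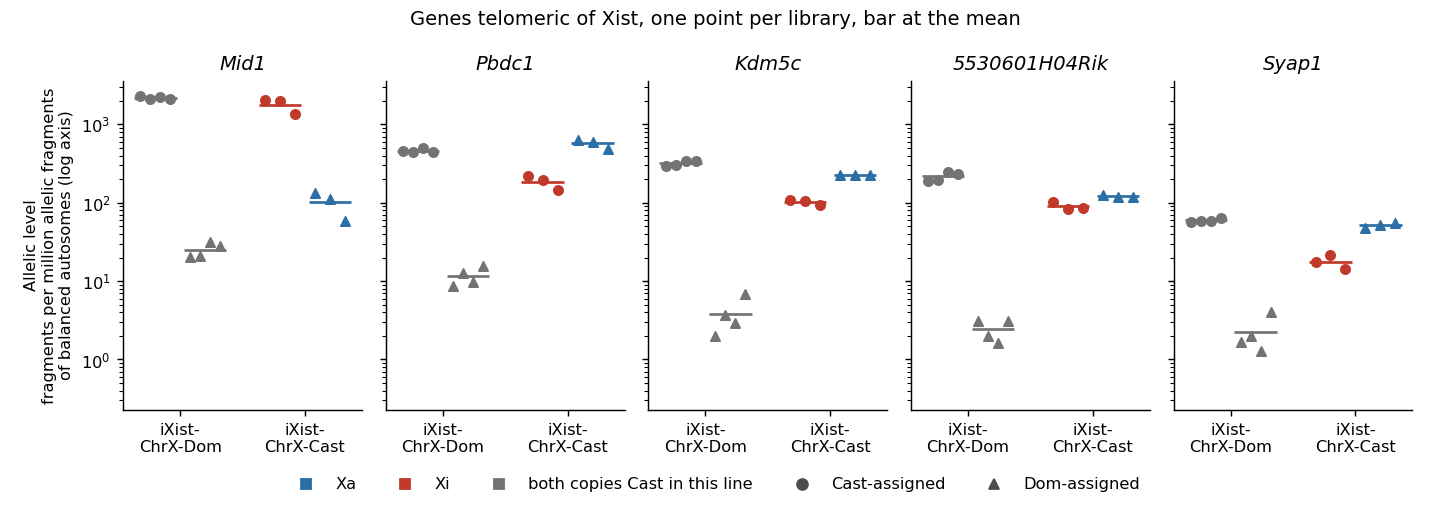
Cast-assigned (circles) and Dom-assigned (triangles) levels of the 5 telomeric members (log axis, allelic CPM), with 1 point per library and a bar at the mean. In iXist-ChrX-Dom both copies are Cast (grey), in iXist-ChrX-Cast the Cast allele is Xi (red) and the Dom allele Xa (blue); Mid1 alone had its Xi level (1356 to 2036) above its Xa level (58.6 to 132).

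Across the 9 members of the iXist-ChrX-Cast ratio table, replicate 3 had the lowest ratio for 7 and replicate 1 the highest for 7. The same library had the lowest ratio for 221 of the 389 other table genes. In iXist-ChrX-Dom, replicate 4, in which the Dom share of the homozygous region was highest, had the highest ratio for 2 of the 5 members, Eif2s3x (0.330) and Shroom4 (0.264), and the lowest for Kdm6a and Utp14a. Of the 241 other table genes, 17 had their lowest ratio in this library, and their median ratio was highest there, at 0.174 compared with 0.125 to 0.143 in the other 3 libraries.

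Total levels, both alleles and unassigned fragments together, were close between the lines for most members. Of the 10 genes, Pbdc1 alone passed (2.92% of all genes and 8.12% of X-linked genes did). Its total level was 136, 129.9, 142 and 135 CPM in iXist-ChrX-Dom compared with 238, 224 and 193 CPM in iXist-ChrX-Cast, without overlap, a log2 difference of -0.71 (SE 0.11, adjusted p = 0.0152, edgeR). Pbdc1 lost this call without iXist-ChrX-Dom replicate 3 (adjusted p = 0.0524), without iXist-ChrX-Cast replicate 1 (0.0626) or replicate 2 (adjusted p = 0.113), and without both doubted iXist-ChrX-Dom libraries (adjusted p = 0.0745). Utp14a had 153, 145, 176 and 190.0 CPM against 208, 219 and 222 CPM, also without overlap, and missed the threshold (-0.41, SE 0.11, adjusted p = 0.089). With the replicate number as a block it passed (-0.48, adjusted p = 0.00424), and calls over all genes rose from 443 to 1794. The other 8 genes had log2 differences of -0.30 to 0.24 and adjusted p of 0.245 to 0.933. Mid1 was the only member above 0 (0.24, SE 0.14, adjusted p = 0.409), and the signs for Kdm6a (-0.10) and 5530601H04Rik (-0.03) turned when 1 library was left out.

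To compare genes with each other, total CPM per kb of counted gene body was apportioned by the corrected Xi share. The counted length was 13.0 kb for Ddx3x, 234 kb for Shroom4 and 306 kb for Mid1. Which start sites were in use was not read, so the order depends on the annotated lengths. Xi levels per kb spanned a wide range. Ddx3x was highest, with 17.4 ± 2.88 CPM per kb in iXist-ChrX-Dom (SD, n = 4) against 25.5 ± 7.34 in iXist-ChrX-Cast (SD, n = 3). Kdm6a followed with 3.00 ± 0.202 and 3.26 ± 0.483. Eif2s3x had 1.08 ± 0.0618 and 2.19 ± 0.365, Utp14a 2.69 ± 0.199 and 1.61 ± 0.0507, and Shroom4 was last with 0.0735 ± 0.0205 and 0.0440 ± 0.0117. The Xi level of Ddx3x per kb exceeded the whole level of Kdm6a from both chromosomes (7.38 and 7.73 CPM per kb), although its ratio was the lower one.

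In iXist-ChrX-Dom, Kdm6a and Utp14a overlapped in this order and the other neighbours did not. In iXist-ChrX-Cast, Utp14a lay below Eif2s3x in every library. Mid1 (1.60 ± 0.261), Pbdc1 (1.43 ± 0.228), Kdm5c (1.27 ± 0.0251) and 5530601H04Rik (1.21 ± 0.115) each overlapped with the gene next above, Utp14a for Mid1, although Utp14a did not overlap with Kdm5c or 5530601H04Rik, nor Mid1 with Kdm5c. Syap1 (0.264 ± 0.0351) lay below all of these. The Xi share used for Mid1 and the other telomeric members cannot be told apart from a strain difference. The order by ratio was another. In iXist-ChrX-Cast it ran from Eif2s3x (0.462 ± 0.0276) over 5530601H04Rik to Kdm6a (0.389 ± 0.00748), then Ddx3x and Kdm5c (0.283 ± 0.0136), then Syap1 and Pbdc1, and last Utp14a and Shroom4 (0.0924 ± 0.0139), with overlap between 5530601H04Rik and Kdm6a, Ddx3x and Kdm5c, and Syap1 and Pbdc1. In iXist-ChrX-Dom it ran Utp14a, Kdm6a (0.437 ± 0.00500), Ddx3x, Eif2s3x (0.290 ± 0.0355) and Shroom4 (0.209 ± 0.0380), and Kdm6a and Ddx3x were the only neighbours without overlap.

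**Figure D4:**
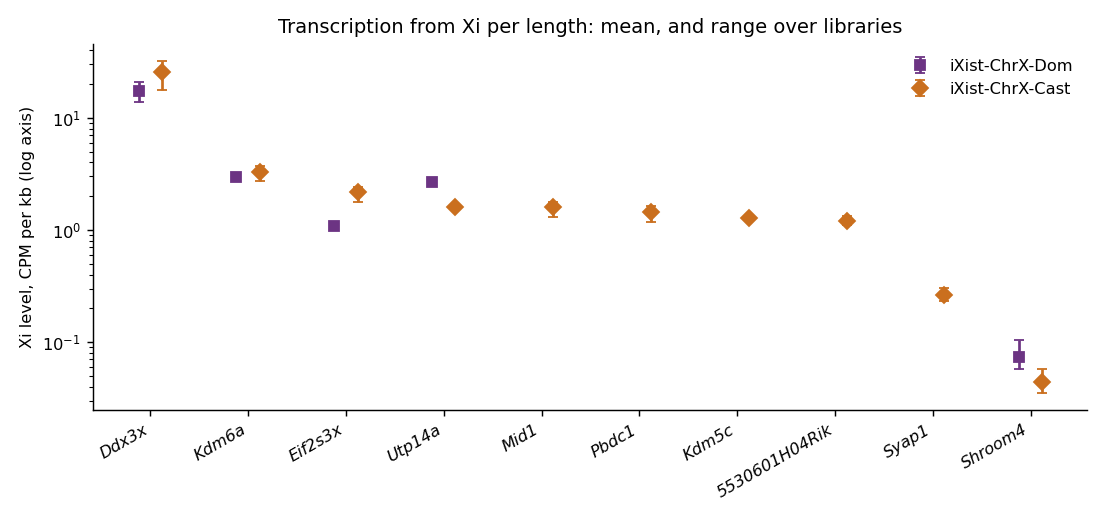
Xi level per length (log axis, CPM per kb of gene body apportioned by the corrected Xi share), with the mean over libraries as a point and bars from the lowest to the highest library, for the 5 genes of iXist-ChrX-Dom and the 10 of iXist-ChrX-Cast. Ddx3x (17.4 and 25.5) lay above all others and Shroom4 (0.0735 and 0.0440) below. For Mid1 and the other telomeric genes, Xi and strain cannot be told apart.

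Among the genes of the ratio tables, members varied in rank. In iXist-ChrX-Dom Utp14a was number 6 of 246 by mean ratio, Kdm6a 8, Ddx3x 26, Eif2s3x 33 and Shroom4 68. In iXist-ChrX-Cast Eif2s3x was number 7 of 398 (Xist left out), with 5530601H04Rik at 12, Kdm6a at 13, Ddx3x at 28 and Kdm5c at 35. Syap1 and Pbdc1 were at 71 and 82, and Utp14a and Shroom4 were lower down at 128 and 241. The median member ratio was 0.314 ± 0.0151 in iXist-ChrX-Dom, where the other 241 genes had a median of 0.143 ± 0.0217, and 0.283 ± 0.0136 in iXist-ChrX-Cast, where the other 389 had 0.120 ± 0.0109. Of the members, 4 of 5 and 7 of 9 lay above the upper quartile of the other genes (0.212 and 0.192). This was not tested, and the members were chosen with earlier results of these data known.

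**Figure D5:**
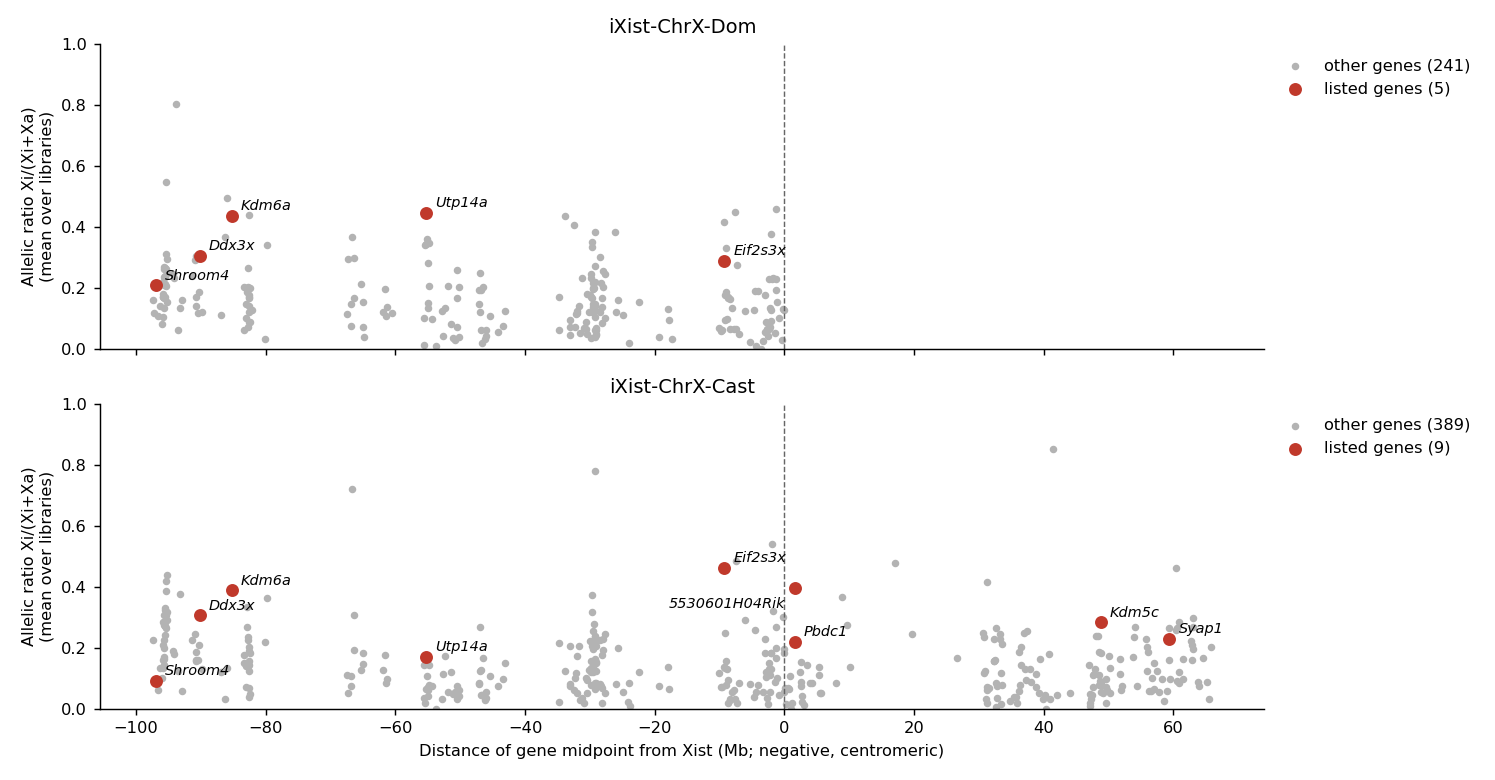
Mean allelic ratio over libraries against distance of the gene midpoint from Xist in Mb (negative, centromeric), listed genes in red and other table genes in grey, for iXist-ChrX-Dom (5 and 241 genes) and iXist-ChrX-Cast (9 and 389). Utp14a had a ratio of 0.447 in the upper panel and 0.170 in the lower, and Eif2s3x 0.290 and 0.462.

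The nearest table gene on each side of a member mostly had a lower ratio. In iXist-ChrX-Cast the member was higher in every library in 14 of 16 such pairs with non-members, and in iXist-ChrX-Dom in 7 of 10. How often other X-linked genes exceed their own neighbours in every library was not counted, so these counts do not set the members apart. Neighbours that were higher than the member in every library were Nudt11 (0.224 ± 0.121 against 0.0924 for Shroom4) and Txlng (0.265 ± 0.0427 against 0.230 for Syap1) in iXist-ChrX-Cast and Zfx (0.417 ± 0.0230 against 0.290 for Eif2s3x) in iXist-ChrX-Dom. Zfx, a transcription factor gene with its midpoint 102 kb from that of Eif2s3x, had a ratio of 0.136 ± 0.0252 in iXist-ChrX-Cast, so that the pair changed order between the lines. Both neighbours of Utp14a had lower ratios in iXist-ChrX-Cast than in iXist-ChrX-Dom, as Utp14a had: Zdhhc9 had 0.0655 ± 0.0173 against 0.343 ± 0.0536 and Bcorl1 0.106 ± 0.0182 against 0.362 ± 0.123. Next to Kdm6a, Fundc1 had 0.497 ± 0.0728 in iXist-ChrX-Dom, above Kdm6a in 3 of 4 libraries, and 0.134 ± 0.0331 in the other line, and Chst7 had 0.203 ± 0.0756 and 0.176 ± 0.0860. These are descriptions, and the differences between lines for the neighbours are not given a test here.

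By the lower of both lines' mean ratios, Kdm6a (0.389) was exceeded by 1 of 230 non-members in both tables, Ddx3x (0.306) by 5, Eif2s3x (0.290) by 7, Utp14a (0.170) by 51 and Shroom4 (0.0924) by 124. The 5 non-members highest on this measure, over 4 and 3 libraries, were Suv39h1 (0.547 ± 0.0668 in iXist-ChrX-Dom compared with 0.420 ± 0.00978 in iXist-ChrX-Cast), Slc25a5 (0.366 and 0.719), Ssr4 (0.352 and 0.373), Wdr44 (0.340 and 0.362) and Idh3g (0.334 and 0.318).

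Of 8 other genes often listed as escaping in mouse cells, 3 were in the iXist-ChrX-Dom table and 7 in the iXist-ChrX-Cast table, all but Bgn in the latter. Gripap1 had ratios of 0.212 ± 0.0241 and 0.275 ± 0.0456, 1810030O07Rik 0.305 ± 0.0275 and 0.159 ± 0.00927, and Slc6a8 0.245 ± 0.0557 and 0.132 ± 0.0460. In iXist-ChrX-Cast alone, Jpx had 0.182 ± 0.00968, Car5b 0.0899 ± 0.0597, Itm2a 0.0844 ± 0.0666 and Ftx 0.0675 ± 0.00141, the values of Car5b, Itm2a and Jpx resting on 13 to 48 allelic fragments a library. Bgn, an extracellular matrix gene expressed in fibroblasts, had 109 Dom and 4 Cast fragments in iXist-ChrX-Dom compared with 82 Dom and 1 Cast fragment in iXist-ChrX-Cast, Dom in both lines whichever chromosome was Xi.

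Gene copies could take fragments from members. The Y-linked partners Kdm5d, Ddx3y and Eif2s3y had 0 or 1 fragment in every library and Uty had 2 to 5, against 15579 to 22405 for its partner Kdm6a in iXist-ChrX-Dom. D1Pas1, an autosomal copy of Ddx3x without introns, had 134 to 168 fragments in iXist-ChrX-Dom compared with 198 to 290 in iXist-ChrX-Cast, while Ddx3x had 12775 or more. Utp14b, an autosomal copy of Utp14a, was listed at 0. Only uniquely aligned fragments had been counted, so fragments shared between such copies are not among these values.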

How the data were processed

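ChrRNA-seq libraries of 7 samples were grouped by line from their titles. After discarding ribosomal reads (bowtie2 2.3.2), the authors aligned uniquely with STAR 2.4.2a to mm10 with strain polymorphisms masked, assigned fragments by SNPsplit and counted them over whole gene bodies with featureCounts 1.5.2, with strand. The deposited count files hold fragment counts per gene, in all and by genome. The deposited ratio tables hold the fraction of allelic fragments from Xi, for genes the authors had filtered on allelic counts and on the ratio before induction. All columns were used.

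Counts were tested with edgeR 4.0.16 (filterByExpr, quasi-likelihood F test, two-sided) and ratios with limma 3.58.1 on log2((ratio + 0.01)/(1 - ratio + 0.01)), with Benjamini-Hochberg adjustment over all genes tested and a threshold of 0.05. SEs of edgeR changes were derived from the F statistic. Allelic libraries were scaled by TMM over autosomes other than 1, 5, 8, 12 and 14, where earlier work on these files had found uneven allelic shares, and total counts by TMM over all genes. Within a line the library was a block. Alternatives were DESeq2 1.42.0, other scalings, filters and offsets, the replicate number as a block, the sample set as a covariate, replicates 1 and 2 only, and leaving out each library. Leaving out iXist-ChrX-Dom replicates 3 and 4 was added after seeing the data.

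The genes named are the 10 members, Xist, fixed lists of other escape genes, copies and cell markers, the nearest table gene on each side of a member, and the 5 non-members with the highest lower-of-both-lines mean ratio. Members and lists were chosen with earlier results of these data known.

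The replicate numbers were checked as pairs: the deviations of same-numbered libraries from their line means correlated by 0.329, 0.275 and 0.466. The pairing rests on these values, not on the labels, and libraries of the same set but another number correlated as well (0.323, 0.384 and 0.505). On simulated data with 200 genes changed 2-fold, edgeR recovered 67.0%, 69.5% and 71.0% for the Cast-allele (12149 genes), Dom-allele (12569) and total (15186) comparisons and 91.0% and 88.5% for Xi against Xa (12439 and 12286), and limma 12.0% of 200 2-fold odds changes among 2000 simulated ratios. In the same order, false calls made up 6.94%, 4.14%, 3.40%, 6.19%, 5.85% and 7.69% of the calls. The simulated ratios had counting error and the same added spread for every gene, not each gene's own spread. Their shares therefore need not hold for the measured ratios. R 4.3.3 was used, and Python 3.11.15 with pandas 2.3.3 and scipy 1.17.1.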

Additional observations from a re-analysis of the deposited data

Results flagged for a closer look

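The log-odds of the Xi share differed between the lines for 3 members by the test of that difference (limma, adjusted over 235 genes), by 1.92 for Utp14a, 1.29 for Shroom4 and -1.05 for Eif2s3x, iXist-ChrX-Dom minus iXist-ChrX-Cast. Of 30 sets of 4 iXist-ChrX-Dom values (total, Cast and Dom levels and ratios of the members), 1 had a library far from the others by Dixon's test, which chance gives in about 1 of 20: the Cast-allele level of Shroom4 was 237.67 allelic CPM in replicate 1, against 258.8 to 263.1 in the other libraries.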

How the results depend on the processing

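The number of members called did not leave 1.5 times its main value under any alternative for the 2 same-allele comparisons, both comparisons of Xi with Xa and the allelic ratio. For total counts it moved from 1 to 2 with DESeq2, with the replicate number as a block and with replicates 1 and 2 only, to 3 with the sample set as a covariate and to 0 without iXist-ChrX-Dom replicates 3 and 4. Leaving out 1 library gave 0 to 1. The median member ratio in iXist-ChrX-Cast (0.2832) moved to 0.3108 when corrected for the lower share of Cast fragments and to 0.3475 over Kdm5c, Kdm6a, Ddx3x and Eif2s3x alone, and that in iXist-ChrX-Dom (0.3136) moved to 0.2867 with the correction.

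Of 495 values of single members under an alternative, 456 kept their direction and side of the threshold, 16 lost a call, 10 gained a call and 13 changed sign, none of which was a called value. The signs that turned were those of Ddx3x in the allelic ratio (-0.37 corrected for the Cast share, -0.14 with replicates 1 and 2 only, -0.02 without iXist-ChrX-Dom replicates 3 and 4, and between -0.11 and 0.11 without single libraries, below 0 for 3 of 7, iXist-ChrX-Dom replicates 1 (-0.0041) and 3 (-0.02) and iXist-ChrX-Cast replicate 3), Kdm6a there (-0.09 corrected for the Cast share), Eif2s3x on Xi against Xa in iXist-ChrX-Cast (0.08 with replicates 1 and 2 only or without iXist-ChrX-Cast replicate 3), and total counts of 5530601H04Rik (0.02 and 0.03) and Kdm6a (0.02) without single libraries. Without the correction of the Cast share, Eif2s3x passed in iXist-ChrX-Cast (-0.22, adjusted p = 0.0243, edgeR). Without the library as a block, Kdm6a (adjusted p = 0.108) and 5530601H04Rik (adjusted p = 0.0516, edgeR) no longer passed there. The replicate block changed no call of a member other than those of Kdm6a on the Cast allele and Utp14a in total counts. The edgeR interaction on allelic counts called Kdm6a (0.29, adjusted p = 0.0467).

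Genes called in all moved by over 1.5 times for the Dom allele (617) with the replicate block (1122), the sample set as a covariate (1457), replicates 1 and 2 only (1193) and without iXist-ChrX-Cast replicate 3 (1048), for the Cast allele (1819) with the sample set (2811), for Xi against Xa without the block (7304 to 4695 and 6377 to 3401), and for total counts (443), which ran from 18 without iXist-ChrX-Cast replicate 2 to 2398 with the sample set, with 1098 for DESeq2. The causes were not tested. Depth limits Syap1 and the Xi level of Shroom4 most.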
